A study of Mus musculus with 8 samples.

Results

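The 10 mRNAs described here encode receptors with which a macrophage binds and takes up particles, lipids and antibody-coated targets. They are the scavenger receptors Msr1, Marco and Cd36, the Fcγ receptors Fcgr1, Fcgr2b, Fcgr3 and Fcgr4, and the C-type lectin receptors Clec4e, Clec4d and Clec7a. They were listed by gene name as these receptor families, and each of them had a row among the 23141 genes of the deposited table. RNA was sequenced from RAW264.7 cells, an established mouse macrophage line, which were either left without LPS (0 min) or stimulated with 100 ng/ml LPS, a component of the bacterial outer membrane, for 15, 30 or 45 min, for 60, 75 or 90 min, or for 120 min. All cultures were of this 1 transformed line, not of primary macrophages, and the labels set them apart by LPS and its duration alone. With a single library at each time, differences have no replicate check, and a change with time cannot be told apart from a difference between single cultures or libraries.

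Scavenger receptors bind modified lipoproteins and bacterial surfaces. Fcγ receptors bind the constant part of immunoglobulin G: FcγRI, FcγRIII and FcγRIV, encoded by Fcgr1, Fcgr3 and Fcgr4, signal through the ITAM of the common γ chain (Fcer1g) and activate the cell, whereas FcγRIIB, encoded by Fcgr2b, carries an ITIM and inhibits it. Among the lectins, Mincle (Clec4e) recognises mycobacterial glycolipids and a protein released from dead cells, MCL (Clec4d) forms a complex with it, and Dectin-1 (Clec7a) recognises fungal β-glucan. These lectins act through the kinase Syk and the Card9, Bcl10 and Malt1 complex. LPS itself is sensed by TLR4, which activates NF-κB and other transcription factors.

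Over 120 min the lectin receptors Clec4e and Clec4d rose and the high-affinity Fc receptor Fcgr1 fell. Clec4e reached 8.94 times and Clec4d 1.88 times the normalised count at 0 min, whereas Fcgr1 dropped to 0.381 times. The other members with reads lay between 0.622 times (Fcgr3) and 1.54 times (Cd36), and none of these was called. Marco had at most 2 reads in any library.

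Some of these mRNAs carry AUUUA pentamers, the core of AU-rich elements, in the 3′UTR, and a few of them are shown for the lectin receptors that rose, so that their sequence context can be read. In the longest annotated 3′UTR of each gene, Clec4e had 5 pentamers in 1751 bases and Clec4d had 3 in 445 bases. The windows below are given 5′ to 3′ on the strand of the gene (GRCm38), written as DNA with the pentamer in capitals.
Clec4e, chr6:123282793-123282822, minus strand: tctcaggactgcATTTAttgcatgatattc
Clec4e, chr6:123282509-123282538, minus strand: aaaattttgtgcATTTAtataattcacttt
Clec4d, chr6:123275146-123275175, plus strand: agtattttaagaATTTActtttcagttggt
Clec4d, chr6:123275179-123275208, plus strand: tttttgttatatATTTAatgaatggattag

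Cd36 had 6 pentamers in 1660 bases, Msr1 had 5 in 2518 bases, Fcgr2b had 2 in 2397 bases and Clec7a had 1 in 1450 bases. No pentamer was found in the 3′UTR of Fcgr1 (1367 bases), Fcgr3 (493 bases), Fcgr4 (446 bases) or Marco (121 bases). Of 11301 genes with a mean normalised count of at least 10, 67.3% had at least 1 pentamer, with a median of 1.24 per kb. The share was 69.0% among 3′UTRs of 500 to 1500 bases, the class of Fcgr1, and 91.3% among those of 1500 to 3000 bases, the class of Clec4e. Per kb, the 3′UTRs of Clec4d (6.74), Cd36 (3.61), Clec4e (2.86) and Msr1 (1.99) lay above the median of all genes, and those of Fcgr2b (0.834) and Clec7a (0.690) below it. Among 3′UTRs of 1500 to 3000 bases the median was 1.54 per kb, with a median of 3 pentamers. It was 1.37 per kb among those of 500 to 1500 bases. No class was formed for shorter 3′UTRs such as that of Clec4d, whose value rests on 3 pentamers. All these pentamers are matches to a short string, and whether they act in these cells was not tested.

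The 300-base promoter windows of RefSeq (GRCm38.p6) covered 9 of the members with 11 windows. Msr1 was not matched. An NF-κB-like string, GGGNNNNNCC, occurred on either strand in the windows of Cd36, Fcgr2b, Fcgr3, Fcgr4 and Marco, and in 50.8% of all 32851 windows. A C/EBP-like string, TTGCNNAA, was found for Clec4e and Fcgr3 and in 10.8% of all windows. A PU.1-like string, GAGGAAGT, was found for Fcgr4 and in 3.20% of all windows, and the AP-1-like TGANTCA in none of the members and in 7.81% of all windows. The Clec4e match is shown as the member with the largest rise, on the strand of the gene, with capitals marking the string, which reads here as its reverse complement.
Clec4e, chr6:123289919-123289948, minus strand: actccttgtccTTGTGCAAgagaggaaatt

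Of these genes, 5 lie in a pair of clusters and the others lie apart. Clec4d (chr6:123262107-123275268, plus strand) and Clec4e (chr6:123281789-123289871, minus strand) point towards each other with 6520 bases between them. Clec7a lies farther along the same chromosome (chr6:129461591-129472785). Fcgr2b (chr1:170960558-170976071), Fcgr4 (chr1:171018926-171029761) and Fcgr3 (chr1:171051169-171065915) are neighbours with 42854 and 21407 bases between them, whereas Fcgr1 lies alone at chr3:96282909-96293969. Cd36 is at chr5:17781690-17888959, Msr1 at chr8:39543232-39642750 and Marco at chr1:120474538-120505024.

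The neighbours Fcgr2b and Fcgr3 share 142 possible 58-base reads. Their longest identical stretch has 129 bases, all of them coding, and includes the following part of exon 3.
Fcgr2b, chr1:170968003-170968032, minus strand: TCAAATGGAGCAGACCCGCCTCAGCGACCC
Fcgr3, chr1:171057714-171057743, minus strand: TCAAATGGAGCAGACCCGCCTCAGCGACCC
Reads that could not be told apart between genes were discarded by the authors. Of the possible 58-base reads, 94.8% of Fcgr2b and 89.0% of Fcgr3 matched no other gene, and levels were computed from these alone. The other 8 members were 100% unique, and no other pair of the Fcγ receptor mRNAs shared a stretch of more than 14 bases. Reads of Fcgr2b and Fcgr3 can therefore be assigned to either gene over most of their length.

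The libraries held between 100229997 and 159036125 counted reads. The ribosomal RNA precursor Rn45s took 8.18% to 9.11% of them at 0, 30, 60 and 120 min and 12.96% to 20.5% at 15, 45, 75 and 90 min. Normalised counts, meaning counts divided by median-of-ratios size factors (0.71 to 1.23), were used to compare a gene between libraries. Rpkm values, meaning reads per kilobase of unique sequence, scaled to the total of counted reads, were used to compare levels between genes, and since they are scaled by all reads including Rn45s, their course differs from that of the normalised counts. A gene was called higher or lower when an exact negative binomial test of the pair of libraries gave an unadjusted p-value under 0.05 and the log2 ratio was beyond 0.5. This test compares libraries, not conditions. Intervals are 95% intervals and cover counting error only. Among macrophage markers, Csf1r (210 to 285 rpkm), Lyz2 and Itgam were detected in every library, and 5 markers with a known length summed to between 3642 and 4596 rpkm. The summed rpkm was at most 0.0398 for 3 T cell markers, 0.0850 for 3 B cell markers, 0.00498 for 3 epithelial markers and 0.00110 for 3 fibroblast markers, while S100a9, a neutrophil marker, had no read and S100a8 had 47 to 69 reads. In bulk RNA, fewer cells with an mRNA and less of it per cell cannot be told apart.

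Before LPS, Cd36, a fatty acid transporter and receptor for oxidised lipoprotein, had the highest level of the 10 mRNAs with 150 rpkm (149 to 151). It was followed by Clec4d (84.1 rpkm), Msr1 (78.0 rpkm), Fcgr1 (51.4 rpkm) and Clec4e (42.6 rpkm), each outside the interval of its neighbours. Clec7a (11.4 rpkm, 11.01 to 11.8) and Fcgr3 (10.5 rpkm, 10.0 to 11.1) overlapped, as did Fcgr2b (2.22 rpkm, 2.08 to 2.37) and Fcgr4 (1.99 rpkm, 1.77 to 2.22). These intervals leave out the choice of length, on which the order of Clec4d and Msr1 depended. When counts at 0 min were divided by the full size of each gene's longest transcript, Msr1 (84.7 rpkm) lay above Clec4d (80.5 rpkm). Clec7a then had 11.1 rpkm and Fcgr3 8.98 rpkm, and the other places were unchanged. That length was applied at 0 min only. At 60 min Clec4e led with 251 rpkm, followed by Cd36 (147), Clec4d (116), Msr1 (73.9), Fcgr1 (36.4), Clec7a (9.99), Fcgr3 (8.77), Fcgr2b (2.03) and Fcgr4 (1.49). At 120 min the order was the same, with 331 rpkm for Clec4e, 201 for Cd36, 137 for Clec4d, 86.4 for Msr1, 17.0 for Fcgr1, 7.98 for Clec7a, 5.70 for Fcgr3, 2.41 for Fcgr2b and 1.33 for Fcgr4, and no neighbouring intervals overlapped. Clec4e thus moved from the fifth place to the first place and took 9.85%, 38.8% and 41.9% of the summed rpkm of the 10 mRNAs at 0, 60 and 120 min.

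**Figure D1:**
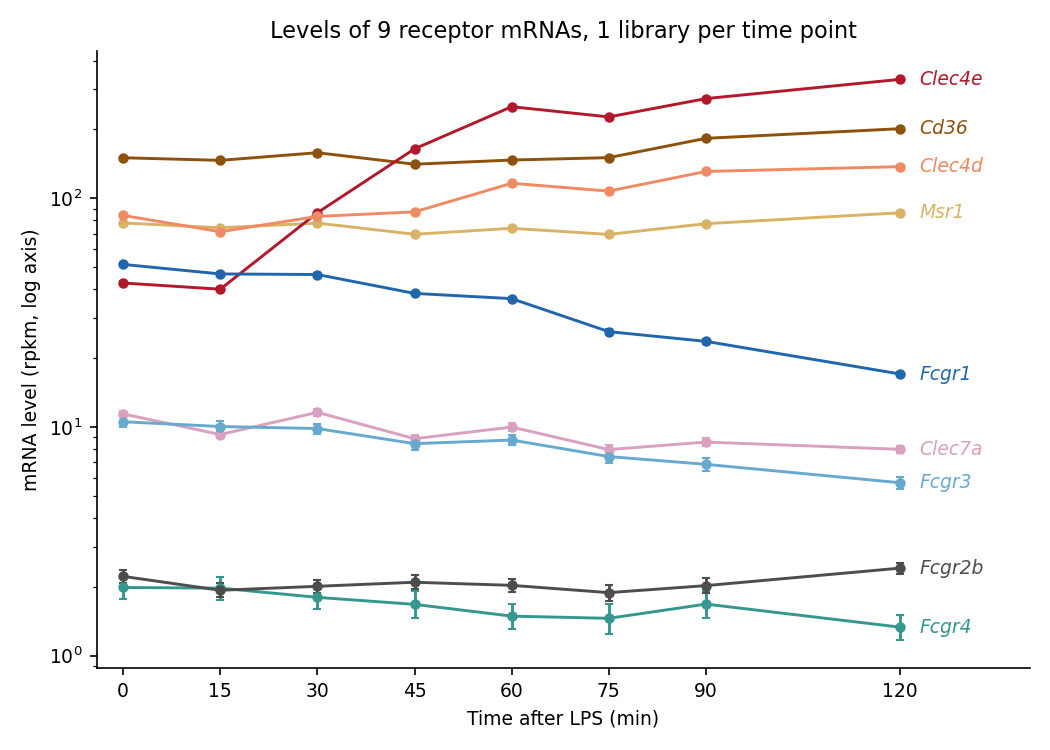
Level in rpkm (log axis) against time after LPS in min for the 9 receptor mRNAs with reads in every library, 1 library per point, with exact Poisson 95% intervals that cover counting error only. Clec4e moves from 42.6 to 331 rpkm and passes Cd36 at 45 min, while Fcgr1 moves from 51.4 to 17.0 rpkm.

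The plot of levels by time shows when the order changed. Clec4e and Clec4d were within a few percent of each other at 30 min, with 86.5 rpkm (85.5 to 87.4) and 83.3 rpkm (82.0 to 84.7). At 45 min Clec4e (164 rpkm) also exceeded Cd36 (141 rpkm).

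Among the C-type lectin receptors, the normalised count of Clec4e was 11750 at 0 min and 11566 at 15 min, and then 24320, 51618, 74072, 78772, 90104 and 105023 in the 6 later libraries. On this scale, each library from 30 min on was higher than every earlier one. In rpkm, Clec4e was 251 at 60 min and 227 at 75 min, and Clec4d was 116 and 107. The 75 min library had the highest share of Rn45s (20.5%), whose part in this was not tested. At 15 min the ratio of the normalised count of Clec4e to 0 min was 0.984 (0.961 to 1.01). It was 2.07 at 30 min (2.03 to 2.11) and 4.39 at 45 min (4.31 to 4.48), then 6.30 after 60 min (6.19 to 6.42), and it ended at 8.94 (8.78 to 9.10). Clec4e was called higher in all 6 libraries from 30 to 120 min and was the only member called up to 75 min. Of the 16965 genes with a read, 1.04% were called higher in the 30 min library, 3.42% in that of 45 min, 3.14% in that of 60 min and 4.3% in that of 75 min. The steepest steps in normalised counts came early: each of the 30 and 45 min libraries exceeded the preceding one, by 2.10 and 2.12 times, whereas the 75 min library exceeded that at 60 min by 1.06 times. At 60 min, 66.8% of the difference between 0 and 120 min was reached. Among 10491 genes with a mean normalised count of at least 100, the rise of Clec4e at 120 min ranked 86th.

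Clec4d had normalised counts of 11933, 10614, 12054, 14077, 17625, 19205, 22258.5 and 22436 from 0 to 120 min. The values up to 30 min stayed close together, those from 45 min on were all higher, and the last pair was nearly equal. Against 0 min it was 1.48 times after 60 min (1.45 to 1.51), 1.87 times after 90 min (1.82 to 1.91) and 1.88 times after 120 min (1.84 to 1.92), and Clec4d was called higher at 90 and 120 min. With Clec4e, 2 of the 10 members were called higher at 90 min, where 5.24% of all genes were, and 2 of 10 at 120 min, where 7.05% were. With total counts or the spike-in transcripts as the scale, Clec4d was not called at 120 min, and its log2 ratio of 0.91 became 0.71 with total counts.

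The ratio of the neighbours Clec4e and Clec4d within a library does not depend on the scale of the libraries. In rpkm it was 0.507, 0.561, 1.04, 1.89, 2.16, 2.11, 2.08 and 2.41 from 0 to 120 min. It changed 4.27-fold by 60 min (4.15 to 4.39) and 4.75-fold by 120 min (4.63 to 4.88), so most of the shift between both mRNAs fell into the first hour. In the same cluster, the lectin genes Clec4n (0.842 times at 120 min) and Clec4a2 (0.714 times) were not called, and Clec4b1 and Clec4a4 had 4 and 3 reads at 0 min.

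Clec7a had normalised counts of 2830, 2410, 2933, 2511, 2649, 2490, 2553 and 2279 from 0 to 120 min. The lowest value was that of the last library, but the values moved up and down, and the 15 min library (2410) was lower than 5 of those that followed. The libraries with a low share of Rn45s (0, 30, 60 and 120 min) had 2830, 2933, 2649 and 2279. The others lay between 2410 and 2553, and the part of the Rn45s share was not tested. The ratio at 120 min was 0.805 (0.766 to 0.847), and no library was called. At 120 min the ratio of Clec7a lay below those of the other lectin receptors in the set, with counting intervals that did not overlap theirs. A difference between their courses was not tested.

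**Figure D2:**
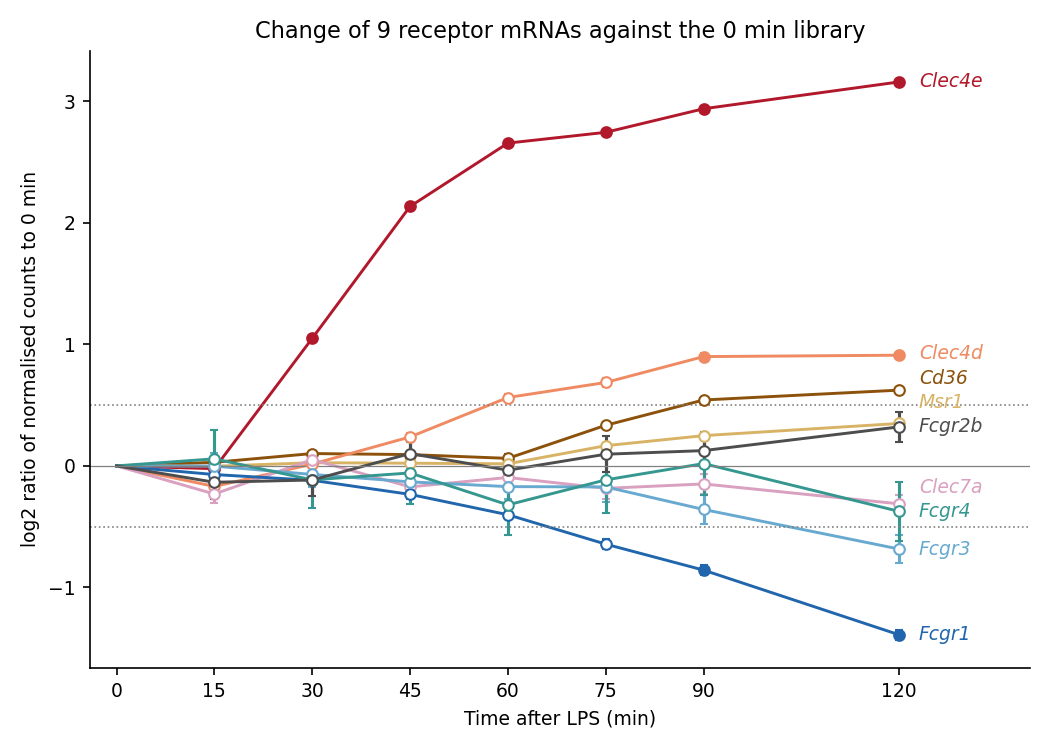
Log2 ratio of normalised counts to the 0 min library against time after LPS in min for 9 receptor mRNAs, with exact 95% intervals of counting error. Filled points were called, open points were not, and dotted lines mark log2 ratios of 0.5 and -0.5: Clec4e is filled from 30 min on, Clec4d and Fcgr1 at 90 and 120 min.

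The plot of ratios against time shows Clec4e apart from all other members from 30 min on, and Fcgr1 below all of them from 45 min on. Among the Fc receptors, the normalised count of Fcgr1 was 14579, 13876.5, 13429, 12393, 11034, 9329, 8045 and 5561 from 0 to 120 min. Each library was lower than the one before it, in all 7 steps. Against 0 min it was 0.757 times after 60 min (0.739 to 0.775), 0.552 times after 90 min (0.536 to 0.568) and 0.381 times after 120 min (0.371 to 0.392). Fcgr1 was called lower at 90 and 120 min, as 1 of 10 members, where 4% and 6.18% of all genes were. It was also the only member called lower at 120 min than at 60 min (0.504 times, 0.489 to 0.519), where 3.44% of all genes were. At 60 min 39.3% of the difference between 0 and 120 min was reached, compared with 66.8% for Clec4e, so a larger part of the change fell into the second hour than for Clec4e. Among the 10491 genes ranked, it was 242nd from the bottom.

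Fcgr3, the low-affinity activating receptor, had normalised counts of 1356, 1354, 1291, 1238, 1205, 1203, 1058 and 844 from 0 to 120 min. Like Fcgr1, it was lower in each library than in the one before. The ratio to 0 min was 0.888 at 60 min (0.826 to 0.956) and 0.622 at 120 min (0.575 to 0.673), and it was not called in any library. With total counts, total counts without Rn45s or TMM factors as the scale, Fcgr3 was called lower at 120 min.

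Fcgr4, the most weakly expressed of the activating receptors, had 175 to 312 reads. Its normalised counts of 267, 278, 246, 256.4, 214, 246, 270 and 206 moved up and down. In the libraries with a low share of Rn45s (0, 30, 60 and 120 min) they were 267, 246, 214 and 206. In those with a high share (15, 45, 75 and 90 min) they were 278, 256.4, 246 and 270. The part of the Rn45s share was not tested. The ratio at 120 min was 0.771 (0.651 to 0.913), but at 90 min it was 1.01 (0.847 to 1.21), and it was not called. The inhibitory receptor Fcgr2b had normalised counts of 808, 736, 745, 866, 788, 863, 881 and 1009. The 120 min library was the highest, at 1.25 times the 0 min library (1.15 to 1.36), and it was not called either.

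**Figure D3:**
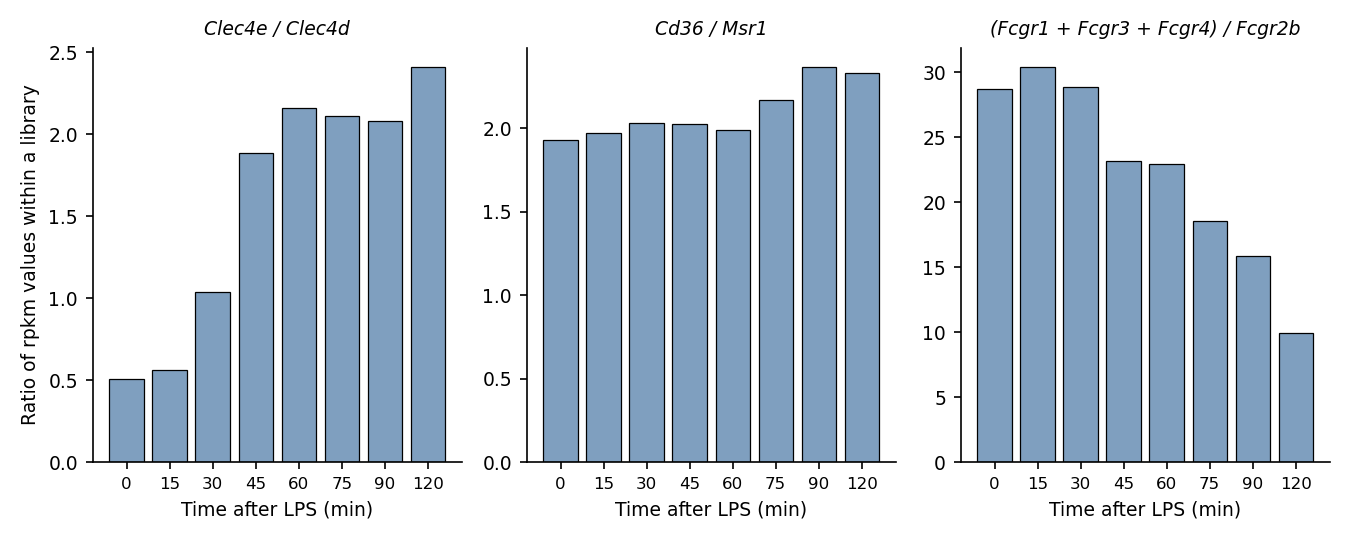
Ratio of rpkm values within each library (bars, 1 library per time point, no error drawn) against time after LPS in min for 3 pairs or groups of receptors. Clec4e over Clec4d moves from 0.507 to 2.41, Cd36 over Msr1 from 1.93 to 2.33, and the activating Fcγ receptors over Fcgr2b from 28.8 to 9.97.

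The balance of activating and inhibitory Fcγ receptor mRNAs shifted, which the bars of within-library ratios show without any scaling between libraries. The summed rpkm of Fcgr1, Fcgr3 and Fcgr4 was 28.8, 30.4, 28.9, 23.2, 23.0, 18.6, 15.9 and 9.97 times that of Fcgr2b from 0 to 120 min. Most of this sum was Fcgr1. Taken singly, at 120 min the ratio to Fcgr2b was 0.305 times (0.279 to 0.334) that at 0 min for Fcgr1, 0.498 times (0.444 to 0.559) for Fcgr3 and 0.617 times (0.513 to 0.743) for Fcgr4. At 60 min the interval included 1 for Fcgr3 (0.911 times, 0.810 to 1.02) but not for Fcgr1 (0.776 times, 0.706 to 0.853) or Fcgr4 (0.821 times, 0.677 to 0.994). That of Fcgr4 ended close to 1. With division by the trend with transcript length, the log2 ratio of Fcgr4 at 60 min was -0.239 instead of -0.321. That of Fcgr2b was -0.046 instead of -0.035. The intervals of the ratios to Fcgr2b were not recomputed with this trend. The ratio of Fcgr1 to Fcgr3 at 120 min was 0.613 times (0.564 to 0.666) that before LPS. These are mRNA levels, and receptor protein was not measured in these libraries.

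Among the scavenger receptors, Cd36 had normalised counts of 60126, 61360, 64509, 64133, 62762, 75797, 87560 and 92628 from 0 to 120 min. The first 5 libraries lay close together and the last 3 were higher. Against 0 min it was 1.04 times after 60 min (1.03 to 1.05), 1.46 times after 90 min (1.44 to 1.47) and 1.54 times after 120 min (1.53 to 1.56), and no library was called, although the log2 ratio was 0.62 at 120 min. When the mean of the 0 and 15 min libraries served as the reference, Cd36 was called higher. Its counting interval is narrow because of the high level, but the dispersion fitted over all libraries sets the limit of the call.

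Msr1, the class A scavenger receptor, followed a similar course at a smaller size. Its normalised counts were 34524, 34454, 35150, 35054.5, 34937, 38738, 41027 and 43983 from 0 to 120 min. The ratio was 1.01 at 60 min (0.998 to 1.03) and 1.27 at 120 min (1.26 to 1.29), and it was not called. Of the differences at 120 min, 8.11% was reached at 60 min for Cd36 and 4.37% for Msr1, against 48.2% and 44.5% at 75 min. The 75 and 90 min libraries are among those with a high share of Rn45s, and on the rpkm scale Msr1 was 0.891 times its 0 min level at 75 min and 0.992 times at 90 min, before 1.11 times at 120 min. On that scale Cd36 was 1.001 times its 0 min level after 75 min, 1.22 times after 90 min and 1.34 times after 120 min. The part of the Rn45s share in the 75 and 90 min values was not tested. Within libraries, Cd36 over Msr1 in rpkm went from 1.93 at 0 min to 1.99 at 60 min and 2.33 at 120 min, a change of 1.21-fold (1.19 to 1.23) over 120 min.

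Marco, a scavenger receptor of certain tissue macrophages, had 1 read at 15 min, 2 reads at 75 min and none in the other 6 libraries. In those 6 libraries a count of 0, taken to allow 3 counts, allows at most 0.0189 cpm (120 min) to 0.0284 cpm (90 min), where cpm are counts scaled to the total as for rpkm but not by length. No induction by LPS was detectable at this depth.

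By the maximum and minimum rules of the study's methods, applied to all 28 pairs of libraries, Clec4e and Clec4d fell into the group with a late maximum (g1), Fcgr1 into the group with a late minimum (g2), and the other 7 members into the group without a called extremum (g0). The extremum was at 120 min for all 3. Of all genes with a read, 7.34% were in g1 and 7.26% in g2. No member was in the groups of early and transient changes. The shares of all genes in these groups and in g0 are not given here. In the paper the early groups held far fewer mRNAs than g1 and g2, so a set this small is not marked by its absence from them.

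Other genes of the same families were examined as lists. At 120 min 7.05% of all genes with a read were called higher and 6.18% lower. Of 14 other scavenger receptors, 2 were called higher and 0 lower. These were Olr1, a receptor for oxidised lipoprotein (207 and 4071 reads at 0 and 120 min, 18.6 times, 16.2 to 21.5), and Cxcl16, a membrane-bound chemokine that also binds oxidised lipids (2.59 times, 2.54 to 2.64). The median log2 ratio of the 7 with a mean normalised count of at least 10 was 0.03, compared with -0.01 over all 12164 such genes, and with total counts it was -0.18 against -0.21. The abundant Colec12 was 1.02 times and Cd68 1.01 times the 0 min library.

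Of 22 other C-type lectin receptors, 4 were called higher and 0 lower at 120 min, against 7.05% and 6.18% of all genes, and 3 had no read. The median log2 ratio of the 15 with a sufficient count was 0.20. With total counts as the scale, 4 were higher and 1 lower, with a median of 0.00 against -0.21 over all genes. Cd69, an early activation marker of leukocytes, went from 4 to 705 reads (167 times, 64.9 to 615). Cd207, known from Langerhans cells, was 5.36 times (3.78 to 7.78) the 0 min library, Clec4a1 5.14 times (3.69 to 7.33) and Clec2d 4.87 times (4.01 to 5.95). All 4 were called with each of 5 other scales, but they started from 4 to 124 reads, and at 120 min none exceeded 3.48 rpkm, compared with 331 rpkm for Clec4e. The well-expressed Clec5a (1.15 times) and Clec12a (1.26 times) were not called.

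Of 11 other Fc receptors and associated chains, 0 were called higher and 1 lower at 120 min, and 3 had no read. Of all genes with a read, 7.05% were higher and 6.18% lower, and 1 call is too few to compare with these shares. The median log2 ratio of the 5 with a sufficient count was -0.02, and -0.23 with total counts. With counts divided by the trend with transcript length, 1 was called higher and 1 lower. The median was then 0.07, against 0.01 over all genes. With the size factors the 1 called was Trim21, a cytosolic receptor for antibody, at 0.515 times (0.460 to 0.575). Fcer1g, the chain through which the activating Fcγ receptors and Mincle signal, had 205 rpkm at 0 min and 176 rpkm at 120 min, and the ratio of its normalised counts was 0.984 (0.963 to 1.01). Its ratio thus lay far from those of Clec4e and Fcgr1, both of whose proteins pair with it.

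Of 18 genes of ITAM and ITIM signalling, 4 were called higher and 0 lower at 120 min, against 7.05% and 6.18% of all genes, with a median log2 ratio of 0.18. With total counts, 3 were higher and 1 lower, with a median of -0.02 against -0.21 over all genes. Malt1 (4.88 times, 4.77 to 4.98) and Bcl10 (2.14 times, 2.07 to 2.21), which form the complex downstream of Card9, were called with each of 5 other scales, as was the adaptor Lcp2 (2.79 times, 2.74 to 2.84). Cbl, a ubiquitin ligase, was 1.64 times the 0 min library (1.58 to 1.71) and was called with only 1 of the 5 other scales. The kinase Syk was 1.03 times and Card9 0.841 times, and the ITIM-binding phosphatase Ptpn6 0.631 times, none of them called. At 60 min, 1 scavenger receptor, 3 lectin receptors and 2 signalling genes of these lists were called higher and 1 Fc receptor gene lower, where 3.14% of all genes were higher and 2.15% lower.

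**Figure D4:**
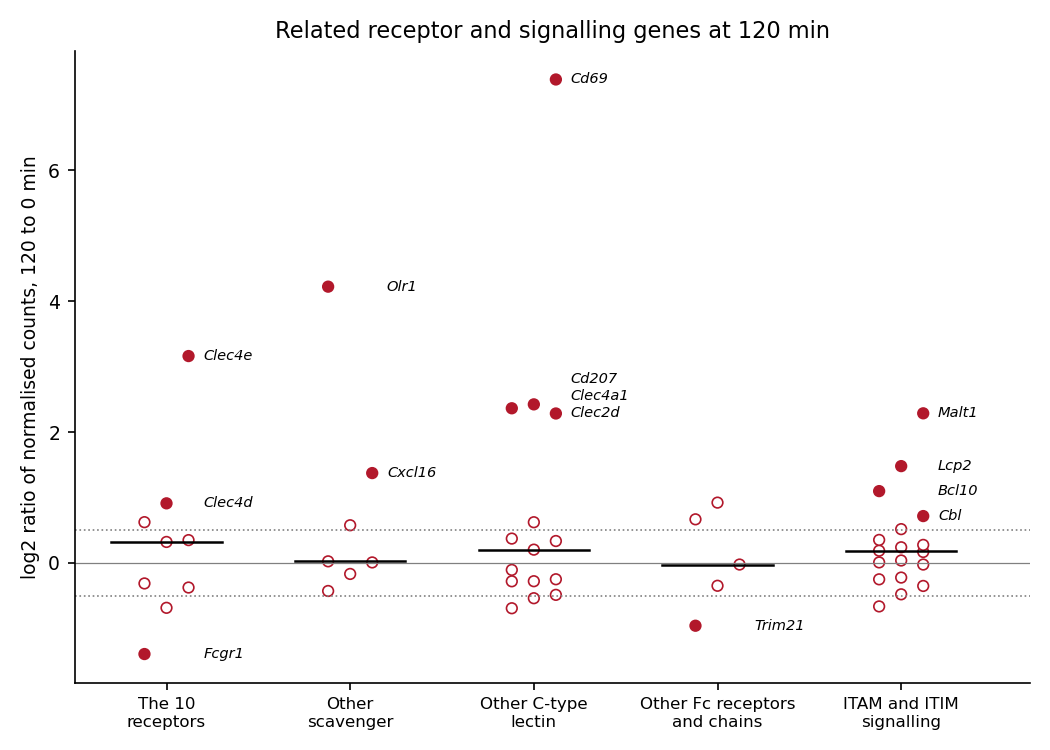
Log2 ratio of normalised counts at 120 min to 0 min for the genes of each list with a mean normalised count of at least 10 (points, 1 gene each, filled where called, with names), the median of each list (black line) and log2 ratios of 0.5 and -0.5 (dotted). The medians lie between -0.02 and 0.32, and most genes lie between the dotted lines.

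In the plot of the lists, the members' median log2 ratio of 0.32 (9 genes) was the highest, and filled points stand well away from it in both directions. This median is the value of Fcgr2b, which was not called. With total counts as the scale the members' median was 0.12, again the highest of the lists, against -0.21 over all genes. The genes whose course was most like that of Clec4e, by Pearson's r of log2 normalised counts over the 8 libraries among 1570 genes that changed at least 2-fold, were Traf1 (r = 0.9997), Bcl10 (0.997), Fosl1 (0.997), Npnt (0.996) and Herpud1 (0.996). Their sizes differed, from 2.14 times for Bcl10 to 36.4 times for Traf1 at 120 min. Nearest to Fcgr1 were Slc44a2 (0.999), Gpr176 (0.998), Sash3 (0.998), Zfyve19 (0.997) and Susd3 (0.997), at 0.141 (Sash3) to 0.498 (Zfyve19) times the 0 min library. Correlations over 8 points of 1 time course that share libraries are high for many genes: r exceeded 0.9 for 266 of the 1570 genes with Clec4e and for 461 with Fcgr1.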

How the data were processed

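RNA was sequenced from 8 cultures of RAW264.7 cells with 1 library each. The values deposited by the authors are raw counts of reads for each gene symbol, without normalization. According to the methods, ribosomal RNA was depleted, Bowtie mapped the 58-base reads to RefSeq transcripts of mm10 with at most 2 mismatches, and reads matching more than 1 gene were discarded. The Bowtie version is not given in the sources used here. The submitters' processing notes name CASAVA 1.8.2 and DESeq 1.10.1. The labels give the RNA fraction as cytoplasmic but the molecule as total RNA, and the methods describe no fractionation for these libraries. The table had 23143 rows. Its 2 rows without a RefSeq accession, taken as the spike-in transcripts (0.0208% to 0.0316% of counts), were left out of library sizes and tests. No column was left unused.

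After the settings of DESeq given in the methods, median-of-ratios size factors, a blind parametric dispersion (0.0287 plus 0.853 divided by the mean) and an exact negative binomial test of pairs of libraries were computed over all 23141 genes in Python 3.11.15 (numpy 2.4.6, scipy 1.17.1, numba 0.67.0). The code was also run on simulated data with large changes and a lower dispersion than that fitted here. That run does not show how well small changes are called. With each time as its own group of 1 library, residual degrees of freedom for a quasi-likelihood test were lacking, and no trend on time was used. The p-values behind the calls compare pairs of libraries and are not printed. Total counts were 100229997 to 159036125. Ratios have exact conditional binomial, rpkm values exact Poisson and changes of within-library ratios Wald 95% intervals, and where no read was counted, up to 3 were taken as possible for cpm. PCR copies were not identified, and all intervals cover counting error only. Unique 58-mers, 3′UTRs and pentamers came from GENCODE vM21 transcripts matched by RefSeq accession. Coordinates came from RefSeq (GRCm38).

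All members are named. From each other list the text names the 3 called genes with the highest and the 3 with the lowest ratio at 120 min, and the 5 genes most alike for the members with the highest and lowest ratio. Fcer1g, Syk, Card9, Ptpn6, Colec12, Cd68, Clec5a, Clec12a and the cluster neighbours were added to these with their values known. The members and lists were chosen with earlier results of these data known. Alternatives were total counts with and without Rn45s, edgeR 4.0.16 TMM factors and trended dispersion, Benjamini-Hochberg adjustment, a log2 limit of 1, a mean count of at least 10, division by the trend with transcript length, the mean of 0 and 15 min as reference, each library left out, a pseudocount of 1 and the longest transcript as length. The spike-in scale was added after seeing the data.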

Additional observations from a re-analysis of the deposited data

How the results depend on the processing

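Of the members, 2 were higher and 1 lower at 120 min. With total counts, with total counts without Rn45s, with spike-in counts, with Benjamini-Hochberg adjustment and with a log2 ratio beyond 1 the number higher was 1, Clec4d being lost each time, and with the mean of the 0 and 15 min libraries as reference it was 3. The number lower was 2, with Fcgr3 added, with total counts, with total counts without Rn45s, with TMM factors and with the mean of 0 and 15 min as reference. In g1 (2 members) there was 1 member with total counts and with Benjamini-Hochberg adjustment, and in g2 (1 member) there were 2 with total counts and with TMM factors. Leaving out each library other than that at 0 min gave 2 to 2 members in g1 and 1 to 2 in g2, the 2 arising without the 90 min library. Clec4e and Fcgr1 were called at 120 min in each of the 10 alternatives in which the calls at 120 min were recomputed. The cause of these changes was not tested.

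No log2 ratio at 120 min changed sign under 6 alternatives, but Cd36 and Msr1 at 60 min (0.06 and 0.02) had the other sign in 3 of 6, down to -0.24 and -0.28. Total counts shifted the median log2 ratio of all genes at 120 min by -0.20, and changed the genes called higher and lower from 1196 and 1049 to 677 and 1250. They were 755 and 1432 without Rn45s, 1138 and 1089 with TMM factors, 1145 and 1090 with the length trend and 766 and 1040 with spike-in counts. Depth limits Marco and, by counting error, Fcgr4. No paired analysis was possible because each time point has 1 library.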
